A study of Homo sapiens with 25 samples.

Results

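The integrated stress response genes described here were the 10 genes ATF4, ATF3, DDIT3, DDIT4, TRIB3, CHAC1, ASNS, PSAT1, SESN2 and PPP1R15A, taken by symbol from the 58302 Ensembl genes counted in each library, and all 10 were found. They were read out by bulk poly(A) RNA sequencing of hiF-T cells, a human fibroblast-like line made from BJ skin fibroblasts that expresses hTERT (the telomerase catalytic subunit). The genotype of every library was WT. In the sort set, 20 libraries came from untreated cells, with biological replicates 1 to 4 of each of 5 groups: ungated cells, and cells gated for low, midlow, midhigh or high accumulation of a dye. In the drug set, 5 libraries came from cells exposed to DMSO, DOT1L inhibition or LSD1 inhibition as replicate 1, and to no drug or LSD1 inhibition as replicate 2. The submitters' design text ties the sort to how the cells proliferate. The labels do not say which dye level marks slow division, and they name no compound, dose, time of exposure or level of hTERT expression.

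The integrated stress response is the common arm of several stress kinases (PERK, GCN2, PKR and HRI). Each phosphorylates the translation factor eIF2 alpha, which lowers general protein synthesis while the mRNA of the transcription factor ATF4 is translated more. ATF4 and its partners then turn on genes for amino acid supply, for feedback and, under lasting stress, for growth arrest and cell death. ATF4 is largely controlled at translation, so its mRNA level is a poor measure of its activity. Several genes of the response are also reached by other routes: ATF3, SESN2 and DDIT4 are also targets of p53, and ATF3 and PPP1R15A respond quickly to many kinds of stress.

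A composite C/EBP-ATF element, through which ATF4 and its partners bind, and the palindromic cyclic AMP response element, bound by the ATF and CREB family, were looked for in the reference promoters of the 10 genes, because factors of the response bind such elements. Promoter windows from 250 bases before to 50 bases after each start (RefSeq, GRCh38.p14) were present for 10 of the 10 genes, 16 windows in all. Both strands were searched for TGATGNAA and for TGACGTCA. These letters do not overlap in any match shown. The sequences below hold the matches with 16 bases on either side, 5′ to 3′ on the gene's strand, with the match in capitals.
ATF3, chr1:212565200-212565239, plus strand: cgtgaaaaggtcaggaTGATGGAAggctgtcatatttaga
ASNS, chr7:97872453-97872492, minus strand: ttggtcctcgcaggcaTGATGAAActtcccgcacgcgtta
CHAC1, chr15:40953246-40953285, plus strand: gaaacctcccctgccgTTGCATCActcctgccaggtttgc
PPP1R15A, chr19:48872347-48872386, plus strand: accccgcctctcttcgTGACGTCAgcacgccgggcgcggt

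Distances are to the RefSeq start of the window that holds the match, and some genes have more than 1 such start. The C/EBP-ATF letters lay 191 bases before that start in ATF3 and 68 bases before it in ASNS. In CHAC1 the same letters were on the opposite strand, 209 bases before the start, so the printed strand shows their reverse complement. PPP1R15A held the palindrome 58 bases before its start. TGATGNAA was found in 3 of the 16 windows and in 3.62% of all 35116 promoter windows of this length, and TGACGTCA in 1 of 16 and in 1.85%. A match is a stretch of letters and not a measured binding site.

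The genes could be counted unequally well, and this bears on every value below. In the GENCODE release 29 annotation (GRCh38), 84.3% of the bases of the principal ASNS transcript (chromosome 7, 97852118 to 97872542, minus strand) are also exon of an overlapping gene on the same strand, AC079781.5, and a count that needs 1 gene per read discards such reads. ASNS had 2 to 43 counts in the sort libraries and AC079781.5 had 0 to 9 over all libraries, and where in the gene its reads lay was not examined. If the authors counted with such an annotation, the ASNS value covers only a part of its mRNA. ASNS values below, also within the amino acid synthesis arm, are values of that count and may not be the level of its mRNA. Of the principal DDIT4 transcript (chromosome 10, 72273920 to 72276036, plus strand), 48.5% is shared with its antisense gene DDIT4-AS1, and DDIT4 had 3 to 125 counts in the sort libraries. The share for DDIT3 (chromosome 12, 57516588 to 57521737, minus strand) was 30% and the other 7 genes shared no exon base. The authors may have counted with another annotation release than the one behind these shares.

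Levels below are counts per 1e+06 gene counts (CPM), scaled by trimmed-mean (TMM) factors within the sort set and within the drug set separately. Gene counts summed to 15015039 to 20030093 per library. Fibroblast markers were summed to between 17500 and 29700 CPM in the sort libraries, led by FN1, and the sum was 21500 to 29700 CPM in high dye and 17500 to 19100 CPM in low dye. Averages of single markers here, apart from those given per dye gate, are over all 25 libraries of both sets. By these the 6 immune markers stayed under 1 CPM, and their sum was at most 1.38 CPM in the sort libraries. Of 6 epithelial markers 4 were under 1 CPM (KRT18 was at 185 CPM on average) and of 5 endothelial markers 3 (TEK was at 78.2 CPM). Of 6 melanocyte markers 5 were under 1 CPM, and MITF rose with dye (0.49 ± 0.13 log2 per gate step, edgeR adjusted p = 0.013), from 1.14 CPM in low to 3.08 CPM in high dye. The part of marker differences in the results was not tested. In these pooled cells, a larger share of cells with the transcript and more transcript per cell cannot be told apart.

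Between the extremes of the dye sort, 5 of the 10 genes (ATF3, DDIT3, TRIB3, CHAC1 and SESN2) rose from low to high dye and none fell. The rise ran from 2.37-fold (DDIT3) to 5.32-fold (ATF3), and ATF4 itself was at 1.11-fold. The threshold was an edgeR quasi-likelihood adjusted p under 0.05 over 14592 genes, and 9.39% of all genes were called higher by the same rule. With the replicate number as a block, which pairs the high and low dye samples of each biological replicate, 9 of the 10 were called higher, all but ATF4, against 19.8% of all genes. The median log2 fold change of the 10 genes was 1.39 and that of all genes tested 0.01. In 4 of the 10 (ATF3, DDIT3, CHAC1 and SESN2) each high dye library lay above each low dye library, which 9.61% of all genes tested did.

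The count without the block moved with single libraries. It was 2 without high dye replicate 1, without high dye replicate 3 or without low dye replicate 4, and 3 without low dye replicate 2. Over all genes, 1370 were called higher with every library, and 810, 668, 987 and 1053 in the order named. With all libraries of 1 number left out, an alternative chosen after seeing the data, the member count was 3 without replicate 1 and 1, ATF3, without replicate 3. All genes called higher then numbered 405 and 459.

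ATF4, the transcription factor that the response is built around, was the gene with the highest level per kilobase of merged exon and moved little. It was at 258, 198, 272 and 253 CPM in low dye replicates 1 to 4 and at 345, 228, 281 and 238 CPM in high dye. The groups overlapped, and replicate 4 was lower in high dye than in low dye. The log2 fold change was 0.15 ± 0.14 (SE, n = 4 per group), with an edgeR adjusted p of 0.487.

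The group around ATF3 and CHOP (the protein that DDIT3 encodes) comprised 5 genes, 4 of which rose: ATF3, DDIT3, TRIB3 and CHAC1. ATF3, a stress-induced repressor of the ATF and CREB family, had the largest change. Its level was 6.14, 1.58, 7.61 and 3.18 CPM in low dye and 27.5, 10.9, 50.1 and 9.01 CPM in high dye. The log2 fold change was 2.41 ± 0.65 (SE, n = 4 per group; edgeR adjusted p = 0.0165), and the groups did not overlap.

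DDIT3, whose product CHOP promotes cell death under lasting stress, stood at 4.07, 5.39, 4.03 and 5.33 CPM in low dye and at 12.5, 9.15, 15.9 and 7.18 CPM in high dye. Replicates 1 and 3, the lowest in low dye, were the highest in high dye. The log2 fold change was 1.25 ± 0.25 (edgeR adjusted p = 0.00308), the smallest adjusted p among the 10 genes.

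TRIB3, a pseudokinase that binds ATF4 and CHOP and dampens AKT signalling, was at 27.6, 10.9, 16.5 and 14.3 CPM in low dye against 98.0, 30.0, 49.0 and 23.5 CPM in high dye. High dye replicate 4 lay below low dye replicate 1, so the groups overlapped although each pair rose. The log2 fold change was 1.54 ± 0.52 with an edgeR adjusted p of 0.0453, and this call was lost in 9 of 17 alternative analyses, with adjusted p from 2.13e-06 to 0.215.

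CHAC1, an enzyme that breaks down glutathione and a well known target of ATF4 and CHOP, was measured at 5.39, 2.39, 3.13 and 2.63 CPM in low dye. In high dye it reached 21.7, 6.51, 15.1 and 7.06 CPM, above all low dye libraries. Its log2 fold change was 1.90 ± 0.52 (edgeR adjusted p = 0.0173), and this call was lost in 5 of 17 alternative analyses. The calls of ATF3, SESN2 and DDIT3 were lost in 3, 2 and 2 of 17.

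PPP1R15A encodes GADD34, the phosphatase subunit that reverses eIF2 alpha phosphorylation and closes the response. It was the fifth gene of this group and was at 0.42 ± 0.22 log2 (edgeR adjusted p = 0.203), from 188, 117, 196 and 158 CPM to 276, 165, 263 and 177 CPM. All 4 pairs were higher in high dye, and the adjusted p was 0.000284 with the replicate block.

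SESN2 and DDIT4 encode sestrin 2 and REDD1, which restrain the growth kinase complex mTORC1. SESN2 rose from 21.5, 11.6, 14.0 and 12.3 CPM in low dye to 88.3, 30.6, 60.1 and 22.7 CPM in high dye, with no overlap. Its log2 fold change was 1.77 ± 0.44 (edgeR adjusted p = 0.0104).

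DDIT4 was at 1.69, 1.07, 0.640 and 0.184 CPM in low dye and 7.30, 3.44, 2.76 and 1.21 CPM in high dye. The last low dye value is 3 counts. The groups overlapped and the log2 fold change of 2.02 ± 0.77 was not called (edgeR adjusted p = 0.0746), but the replicate libraries differed in level more than in ratio: within pairs the log2 ratio was 2.04, 1.59, 1.92 and 2.14. With the replicate block the adjusted p was 2.7e-06.

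Amino acid synthesis was represented by PSAT1, an enzyme of serine synthesis, and ASNS, asparagine synthetase. Neither was called without the block. PSAT1 was at 94.99, 55.1, 75.8 and 70.2 CPM in low dye and 291, 113, 162 and 66.5 CPM in high dye. Replicates 1 to 3 were higher in high dye and replicate 4 was not, with a log2 ratio of -0.08. The log2 fold change was 1.09 ± 0.43 (edgeR adjusted p = 0.084, and 0.00101 with the replicate block).

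ASNS was at 1.13, 0.153, 0.704 and 0.490 CPM in low dye and 2.51, 1.24, 1.14 and 0.459 CPM in high dye. The log2 fold change was 1.13 ± 0.63 (edgeR adjusted p = 0.226, and 0.023 with the replicate block). The low dye replicate 2 value rests on 3 counts.

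**Figure D1:**
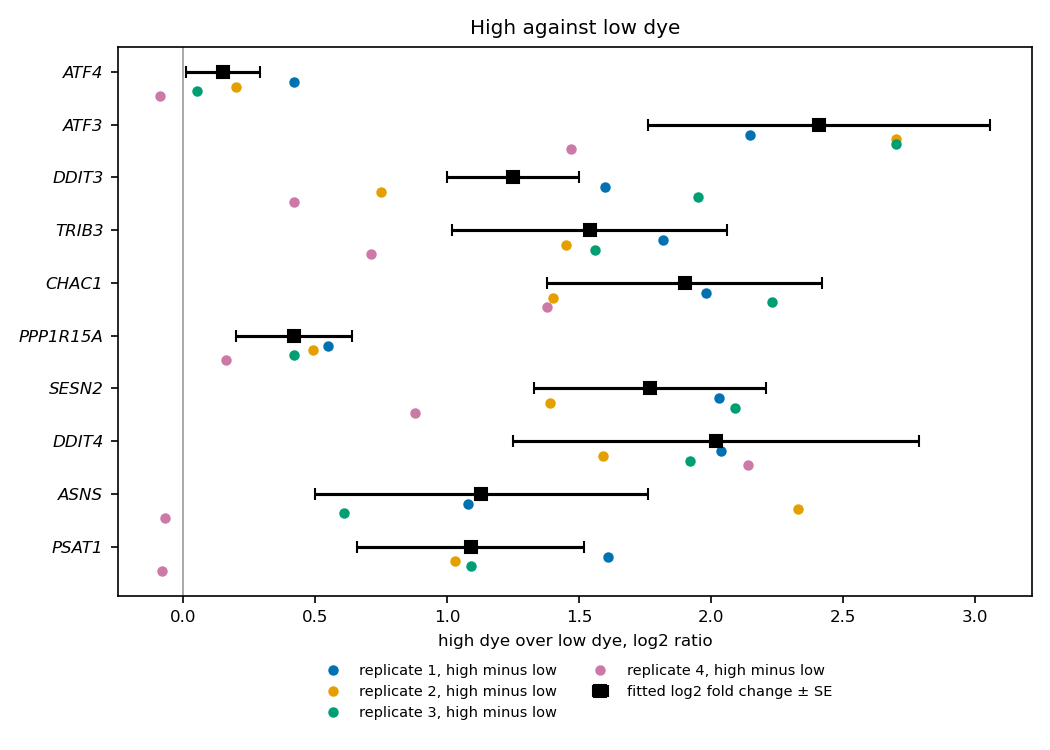
Log2 ratio of high over low dye for each gene: black squares are fitted log2 fold changes with their SE (n = 4 per group), coloured circles the ratio within each of the 4 replicate pairs. DDIT4 has ratios from 1.59 to 2.14 although its SE is wide, while PSAT1, ASNS and ATF4 have replicate 4 just below 0.

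The size of the high against low ratio differed between replicate pairs. The median log2 ratio of the 10 genes was 1.72, 1.40, 1.74 and 0.56 in replicates 1 to 4. All but DDIT4 had their smallest ratio in replicate 4, and DDIT4 had its largest there. For 12 p53 target genes the medians were 1.36, 1.06, 1.49 and 0.59, also smallest in replicate 4, and for 12 S phase genes -1.38, -0.55, -1.71 and -0.61, nearest to 0 in replicates 2 and 4. CDKN1A, the p53 target that halts the cell cycle, had a log2 fold change of 2.21 ± 0.30 and the proliferation marker MKI67 one of -0.87 ± 0.23 (edgeR adjusted p = 0.000337 and 0.0136). The part of the p53 targets and of cell cycle position in the stress gene differences was not tested.

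Across the 4 gates in order, 7 of the 10 genes rose with dye: ATF3, DDIT3, DDIT4, TRIB3, CHAC1, PSAT1 and SESN2. A trend per gate step was fitted over the 16 gated libraries, where edgeR called 14.0% of 14419 genes higher by an adjusted p under 0.05. The gates were taken as equal steps, which is an assumption, since the labels give no dye values. The slopes ran from 0.38 ± 0.12 log2 per step for PSAT1 (adjusted p = 0.0212) to 0.84 ± 0.19 for ATF3 (adjusted p = 0.00353). PPP1R15A had 0.14 ± 0.07 (adjusted p = 0.126), ASNS 0.35 ± 0.17 (0.131) and ATF4 0.05 ± 0.04 (0.408). With the replicate block 9 of 10 were called, against 23.1% of all genes, ASNS with an adjusted p of 0.0151 and PPP1R15A with 8.23e-06. Without the block, the count was 4 without high dye replicate 1 and 3 without replicate 3 as a whole. All genes called higher numbered 2012 with every library, and 1567 and 871 in these settings.

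The group means of 8 genes rose at each of the 3 steps, all but ATF4 and ASNS. SESN2 went from 14.8 to 18.5, 34.7 and 50.4 CPM, TRIB3 from 17.3 to 21.0, 35.9 and 50.1 CPM, and ATF3 from 4.63 to 6.34, 13.2 and 24.4 CPM. TRIB3, CHAC1 and SESN2 rose at each step in 4 of 4 replicates. The share of all genes that rose at each step is not given here. DDIT3 had little difference between the 2 lower gates, at 4.70 and 4.92 CPM, and then 7.12 and 11.2 CPM.

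**Figure D2:**
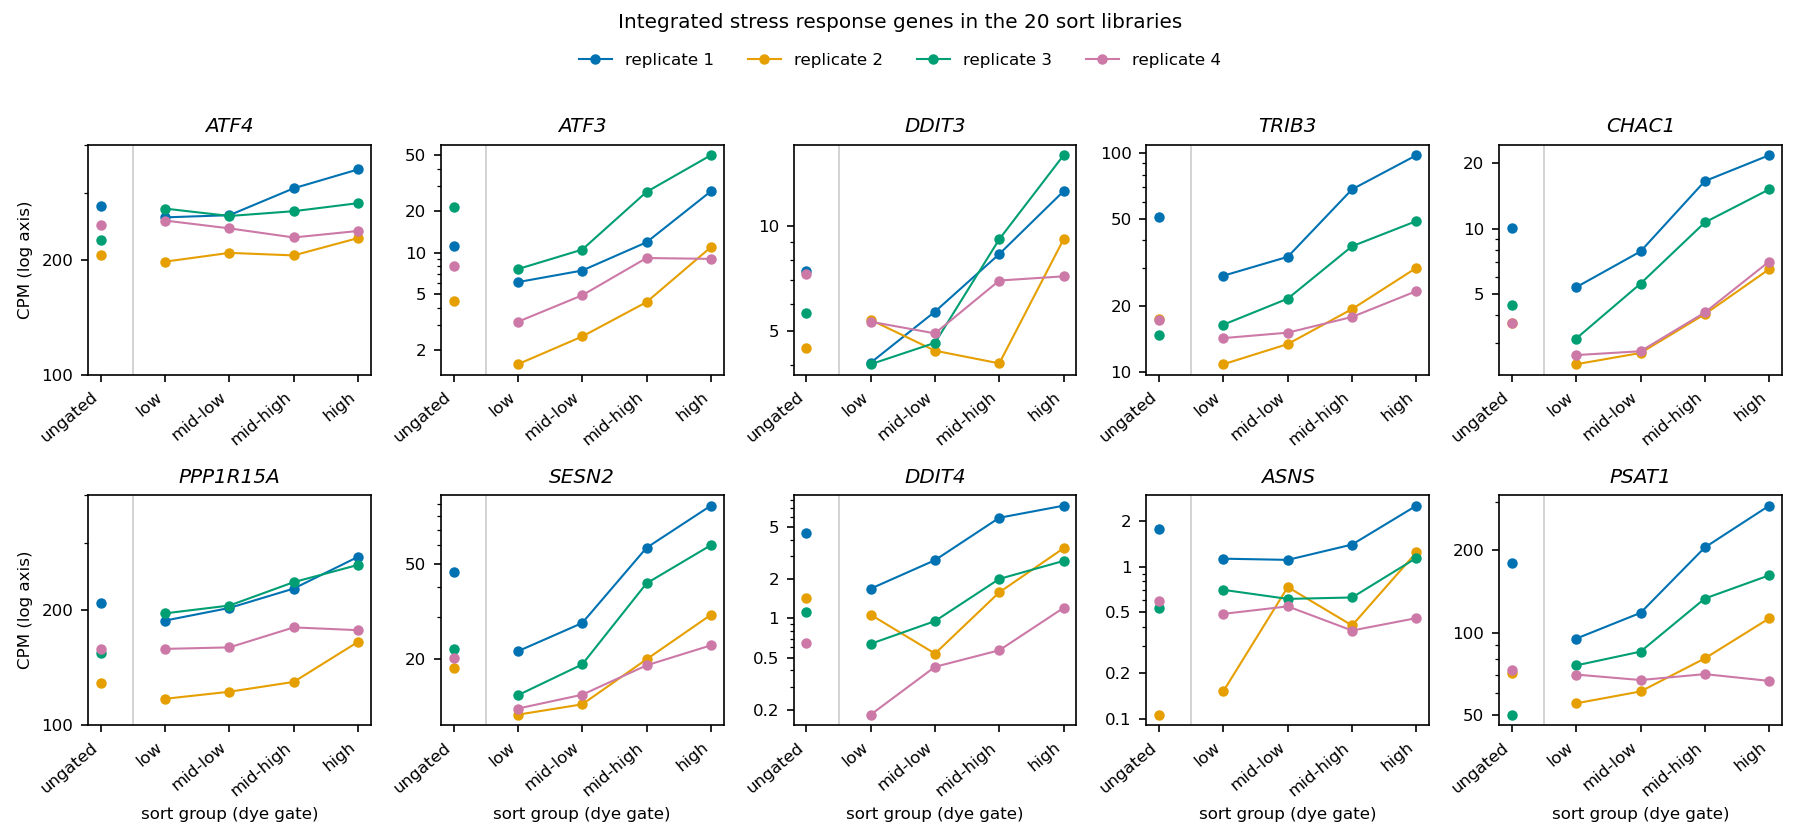
Level of each gene (CPM, log axis) in the 20 sort libraries, 1 panel per gene, with ungated cells at the left and the 4 dye gates joined by replicate. SESN2, TRIB3 and CHAC1 rise at every step in every replicate, and replicate 1 is the top line in 6 of the 10 panels throughout.

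The middle of the sort was less separated. Between midhigh and midlow dye no member was called by edgeR, and no gene of all 14592 (0%). At an unadjusted p under 0.05 there were 1 of the 10 members, DDIT3, and 1891 of all genes. DESeq2 called 0 members. With the replicate block 5 members were called higher, against 5.52% of all genes. In the fit with the block these were DDIT4 with a log2 fold change of 1.09, ATF3 with 0.98, CHAC1 with 0.85, SESN2 with 0.84 and TRIB3 with 0.69, and each was higher in midhigh than in midlow dye in 4 of 4 pairs. The other 5 had DDIT3 at 0.50, PSAT1 at 0.49, PPP1R15A at 0.16, ATF4 at 0.04 and ASNS at -0.18 in the same fit.

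Ungated cells lay between low and high dye in each of the 4 replicates for ATF3, DDIT4, CHAC1 and SESN2. The ungated values of ATF3 were 11.2, 4.49, 21.3 and 8 CPM. Against ungated cells, which are shared by both comparisons, high dye gave no member call by edgeR (0.00685% of all genes were called higher) and low dye none (0.0754% called lower). At an unadjusted p under 0.05 there were 3 members for high dye (DDIT3, CHAC1 and SESN2) and 0 for low dye, and DESeq2 called none in either. With the replicate block, 8 members were higher in high dye than in ungated cells, all but ATF4 and ASNS, against 3.66% of all genes. ATF3, DDIT4, CHAC1 and SESN2 were lower in low dye than in ungated cells with the block, against 7.20% of all genes. For ATF3 the log2 difference was 1.13 ± 0.61 above and -1.28 ± 0.65 below the ungated level, and for PSAT1 0.76 ± 0.43 and -0.34 ± 0.43, both without the block. TRIB3 had 0.99 ± 0.50 and -0.55 ± 0.51, PPP1R15A 0.44 ± 0.22 and 0.02 ± 0.22, and ATF4 0.20 ± 0.14 and 0.04 ± 0.14 in the same fit. The remaining 5 genes ran from 0.83 (ASNS) to 1.20 (CHAC1) above and from -1.11 (DDIT4) to -0.31 (ASNS) below.

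The level of these genes also differed by replicate number. In 6 of the 10 (DDIT4, TRIB3, CHAC1, ASNS, PSAT1 and SESN2), replicate 1 was the highest of the 4 replicates in each of the 5 sort groups, which 3.83% of all genes tested were. ATF3 was instead highest in replicate 3 in each of the 5 groups, as 2.15% of all genes were. ATF4 and PPP1R15A had replicate 2 as the lowest in each of the 5 groups, for which the share of all genes is not given here. TRIB3 in low dye replicate 1, at 27.6 CPM, was above TRIB3 in high dye replicate 4, at 23.5 CPM. TERT was at 1430 to 1680 CPM in replicate 1, 579 to 788 CPM in replicate 2, 731 to 2040 CPM in replicate 3 and 400 to 825 CPM in replicate 4. The part of TERT was not tested. In ungated cells TRIB3 was at 51.3 CPM in replicate 1 and at 17.6, 14.8 and 17.4 CPM in replicates 2 to 4.

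The same count was made over related lists. Replicate 1 was highest in all 5 groups for 8 of 13 tRNA synthetases and their exporter known as ATF4 targets (AARS1, CARS1, GARS1, LARS1, MARS1, SARS1, WARS1 and XPOT), and for 0 of 8 other tRNA synthetases. It was so for 5 of 11 amino acid synthesis genes (PHGDH, PSPH, SHMT2, MTHFD2 and ALDH1L2), where PHGDH and PSPH work beside PSAT1 in the serine pathway. Among 8 amino acid transporters there were 3, among 14 other stress targets 3, among 8 hypoxia genes 2, among 17 sensor and eIF2 genes 2 and among 11 immediate early and heat shock genes 1. Among 12 p53 targets, 14 endoplasmic reticulum chaperones and 12 S phase genes there were 0. These are counts in 4 replicates, given as a description, and differences between lists were not tested.

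**Figure D3:**
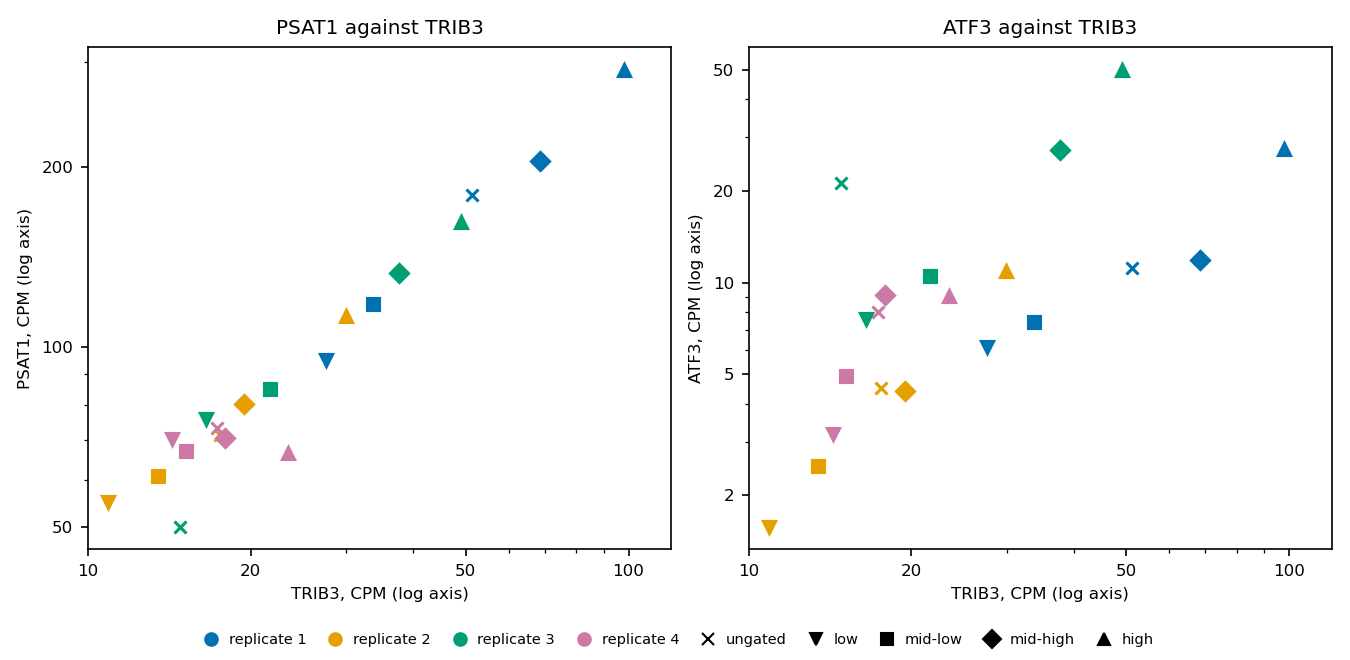
PSAT1 against TRIB3 (left) and ATF3 against TRIB3 (right) in the 20 sort libraries, both axes in CPM on log scales, coloured by replicate and shaped by sort group. PSAT1 and TRIB3 lie close to 1 line, and within a sort group the replicate 1 library is the highest in both, while in the right panel each replicate 3 library lies above the replicate 1 library of its sort group.

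As a description over the 20 sort libraries, which share 5 groups and 4 replicates, TRIB3 and PSAT1 had a Pearson r of 0.98 in log2 CPM, TRIB3 and CHAC1 one of 0.97, and CHAC1 and SESN2 one of 0.98. After the group means were removed these were 0.97, 0.96 and 0.97. ATF3 had lower values with PSAT1 (0.62, and 0.48 without group means) and DDIT4 (0.55 and 0.28), and its highest without group means was with PPP1R15A (0.87). ATF4 and PPP1R15A had 0.92 and 0.93. By these values TRIB3 and CHAC1, listed with ATF3 and CHOP, lay nearer to PSAT1 than to ATF3 or DDIT3.

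The ATF3 and CHOP arm (ATF3, DDIT3, TRIB3, CHAC1 and PPP1R15A) was set against the amino acid synthesis arm (ASNS and PSAT1) as the difference of mean log2 CPM in each library. The difference was 0.71 ± 0.24 in low dye, 0.70 ± 0.32 in midlow, 1.15 ± 0.40 in midhigh and 1.15 ± 0.50 in high dye (SD, n = 4 each), and 1.12 ± 0.53 in ungated cells. Within replicates 1 to 4 the high minus low difference was 0.27, -0.32, 0.92 and 0.90, so replicate 2 ran the other way. In replicate 2 ASNS went from 3 counts in low dye to 23 in high dye, a log2 ratio of 2.33. PSAT1 had a log2 ratio of 1.03 there, and the ATF3 and CHOP arm went from 2.98 to 4.34. The sign in replicate 2 thus rests on few ASNS counts. The range over libraries was 0.46 to 1.03 in low dye and 0.71 to 1.61 in high dye, so the groups overlapped. Both arms were at a higher mean in high than in low dye, 4.88 against 3.48 for the first and 3.72 against 2.77 for the second. The mean high minus low difference between arms was 0.44, and leaving out 1 library gave 0.29 to 0.59, with the lowest value without high dye replicate 3. With the 11 tested genes of the amino acid synthesis list added to the pair it was 1.03, and with PSAT1 alone, chosen after seeing the data, 0.48. With PSAT1 alone the first arm minus the second was -2.23 in high and -2.71 in low dye. The level and sign of that value thus depend on the ASNS count. No test was made on this score.

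Levels per kilobase used the merged exons of each gene rather than a single transcript. By this measure ATF4 had the highest mean level among the 10 in both extremes, at 97.6 CPM per kilobase in low dye and 109 in high dye. The merged length was 3434 bases for TRIB3 against 2499 in its principal transcript, and 3453 in both for SESN2. The order of genes with near values depends on the length chosen. In low dye PPP1R15A followed with 53.3 and PSAT1 with 33.8. In high dye PSAT1, at 72.2, and PPP1R15A, at 71.2, did not differ beyond their spread. TRIB3 and SESN2 had the same value, 14.6, in high dye, and in low dye 5.05 and 4.30, within their spread. ATF3, with 6.04, and CHAC1, with 6.11, were also within their spread. DDIT4 (1.79) and ASNS (0.300) were last, and both share exon bases with other genes. Whether this lowered their counts was not tested.

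In the wider pathway, lists of related genes were compared between high and low dye, where 9.39% of all genes were called higher and, with the replicate block, 19.8%. Of 17 genes for the kinases, the eIF2 and eIF2B subunits and their regulators (PPP1R15B, DELE1, OMA1, GCN1 and IMPACT), 0 were called in either direction by edgeR (median log2 fold change 0.08). OMA1, a mitochondrial protease upstream of the kinase HRI, had 0.33 ± 0.13 and EIF2B2 -0.23 ± 0.13. The replicate block gave 1 higher and 3 lower, against 17.4% of all genes lower. Of 14 other stress targets tested, 9 were higher and 0 lower (median 0.77), and 13 and 0 with the block. They included NUPR1, a stress-induced chromatin protein, at 17.4-fold on few counts, from at most 0.376 CPM in low dye, and GDF15, a secreted stress cytokine, at 9.25-fold from 24.0 to 222 CPM. ADM2 was at 6.08-fold and KLHL24 at 3.64-fold. All 4 passed edgeR with adjusted p from 0.00038 to 0.032. GDF15 and others of this list are p53 targets as well.

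Genes of amino acid supply were read against the same shares of all genes, and differences between lists were not tested. Of 11 amino acid synthesis genes tested, 1 was higher, the mitochondrial folate enzyme ALDH1L2 (2.10-fold, edgeR adjusted p = 0.0322), which is near the share of all genes, and 1 lower, the proline synthesis enzyme ALDH18A1 (0.822-fold, 0.0176). The block gave 6 higher and 1 lower. Of 8 transporters 0 were called, where SLC6A9 had a log2 fold change of 1.00 ± 0.43 and SLC1A4 0.80 ± 0.29, and with the block 5 were higher and 1 lower. Of 13 synthetase genes of the ATF4 type 5 were higher and 0 lower (7 and 0 with the block), led by WARS1 with 0.75, SARS1 with 0.54 and GARS1 with 0.53. Of 8 other synthetases 0 were called, with FARSB at -0.30 and KARS1 at -0.14, and the block gave 0 higher and 1 lower.

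Chaperones of the endoplasmic reticulum, targets of the other branches of the unfolded protein response, had 0 of 14 genes called higher and 1, PDIA4, lower, at -0.43 ± 0.12 log2 (edgeR adjusted p = 0.0241), while 8.35% of all genes were called lower. With the block 1 was higher and 4 were lower. HSPA5, the chaperone BiP, had 0.02 ± 0.12 and is named outside the rule as the usual marker of this branch. Among 11 immediate early and heat shock genes 3 were higher (JUNB, HSPA1A and DNAJB1, log2 fold changes 0.67, 0.65 and 0.32) and 0 lower, and with the block 7 were higher and 1 lower. Among 8 hypoxia genes 0 were called, with ANKRD37 at 0.42 and CA12 at 0.33, and 4 were higher with the block. Of the p53 targets 10 of 12 were higher (median 1.20), led by BTG2 with 3.08, CDKN1A with 2.21, TP53INP1 with 2.14 and ZMAT3 with 1.29. Of the S phase genes 11 of 12 were lower (median -0.98), led by ORC1 with -1.30, CDT1 with -1.14, MCM2 with -1.11 and MCM5 with -1.06. Handling of cells during the sort, read out by the immediate early genes, was not tested as a part of the result.

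**Figure D4:**
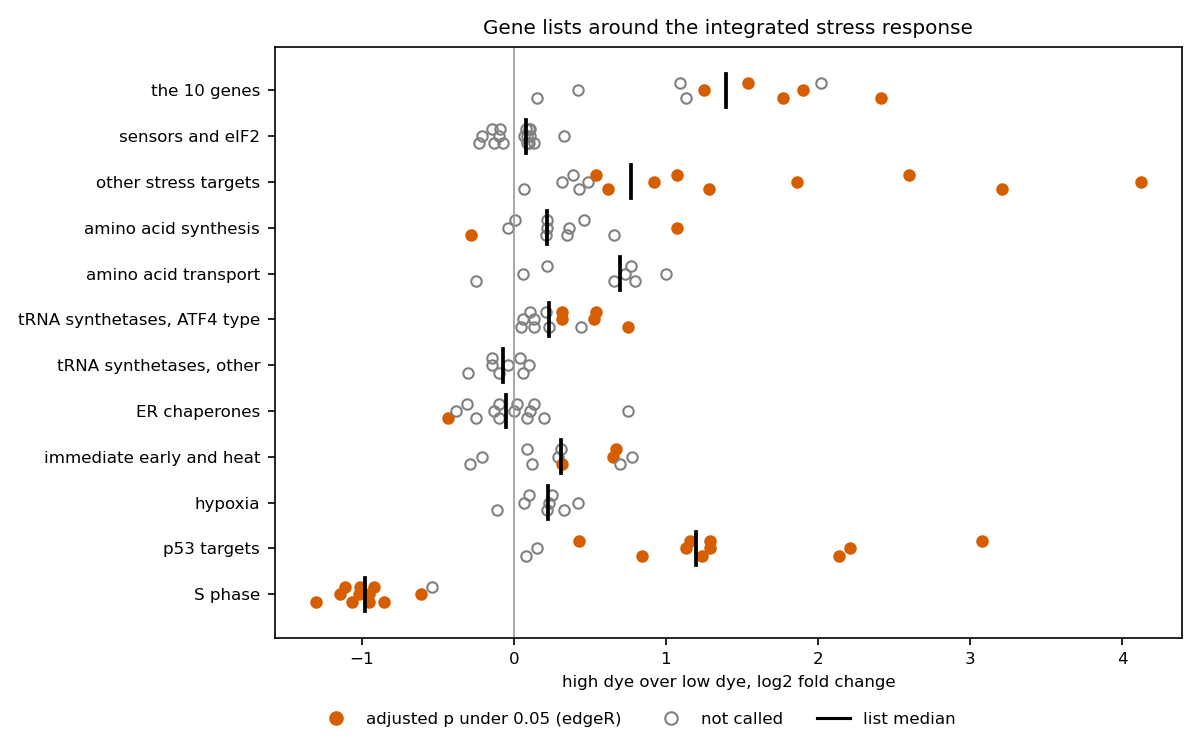
Log2 fold change of high over low dye for each tested gene of 12 lists: filled points have an edgeR adjusted p under 0.05, open points do not, and black lines are list medians. The stress targets and p53 targets lie to the right, S phase genes to the left, and the sensors, other tRNA synthetases and chaperones around 0.

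The genes outside the 10 whose log2 CPM followed a member most closely over the 20 sort libraries were taken from 8914 genes with a mean of at least 10 CPM. For DDIT3 they were SQSTM1 and MGST1 (Pearson r 0.91 each), FDXR and SLC38A7 (0.89 each) and GDF15 (0.88). For ATF3 they were SERINC3, SAT1, GABARAPL1 and YPEL5 (0.96 each) and SERINC1 (0.95). PSAT1 was followed by POPDC3 (0.97), AMIGO2 (0.96), PRNP, NIBAN1 and SEL1L3 (0.95 each). ASNS, on its few counts, was nearest to MFAP3L (0.86), LPXN (0.85), ASF1A and CYB5R4 (0.84 each) and RSL24D1 (0.83). No gene appears in more than 1 of the 4 sets.

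Inhibition of LSD1, a histone demethylase, gave no member call against the controls of the drug set, which were 1 DMSO and 1 no drug library. ASNS, with 1 to 7 counts in the drug libraries, fell below the count filter, so 9 members were tested, and 0.114% of all genes were called by edgeR. At an unadjusted p under 0.05 there was 1 of 9 members, PSAT1, against 950 of 14002 genes, and DESeq2 called 0 members. PSAT1 was at 49.9 CPM in DMSO and 49.6 CPM in no drug, and at 72 and 61.9 CPM in the LSD1 inhibition replicates 1 and 2. The log2 fold change of PSAT1 was 0.44 ± 0.12 (SE, n = 2 per group, edgeR adjusted p = 0.375).

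TRIB3 was at 14.5 CPM in DMSO and 13.2 CPM in no drug against 16.6 and 18.6 CPM with LSD1 inhibition, or 0.35 ± 0.15 log2 (edgeR adjusted p = 0.757). The other 7 tested genes had log2 fold changes of 0.28 (DDIT4), 0.26 (CHAC1), 0.11 (DDIT3), 0.02 (ATF3), -0.04 (SESN2), -0.07 (ATF4) and -0.23 (PPP1R15A). With a replicate block, whose pairing 2 pairs cannot show, PSAT1 and TRIB3 were called higher and PPP1R15A lower (edgeR adjusted p = 2.83e-08, 0.0155 and 0.00221). The same fit called 9.1% of all genes higher and 6.91% lower. ATF4 was at 230 and 172 CPM in DMSO and no drug and at 216 and 164 CPM with LSD1 inhibition. Replicate 2 was the lower one with and without inhibitor, and the no drug library was lower than DMSO for ATF3 by 0.64 and for PPP1R15A by 0.43 on the log2 scale. DMSO and replicate number cannot be told apart in these controls.

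Inhibition of DOT1L, a histone methyltransferase, was measured in 1 library against 1 DMSO library and has no replicate check. Of the 10 genes only ASNS was past a log2 ratio of 1, which 3.60% of the 14002 genes tested in the drug set were, and it rested on 5 counts against 1, a ratio of 4.62 with a 95% exact counting interval from 0.517 to 218. The other 9 genes had log2 ratios from -0.03 (SESN2) to 0.41 (DDIT4). ATF3 was at 24 CPM against 19 CPM, a ratio of 1.26 with an exact counting interval of 1.09 to 1.47, which covers counting error only. The median log2 ratio of the 10 was 0.15, and 0.42 with the no drug library as the control.

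**Figure D5:**
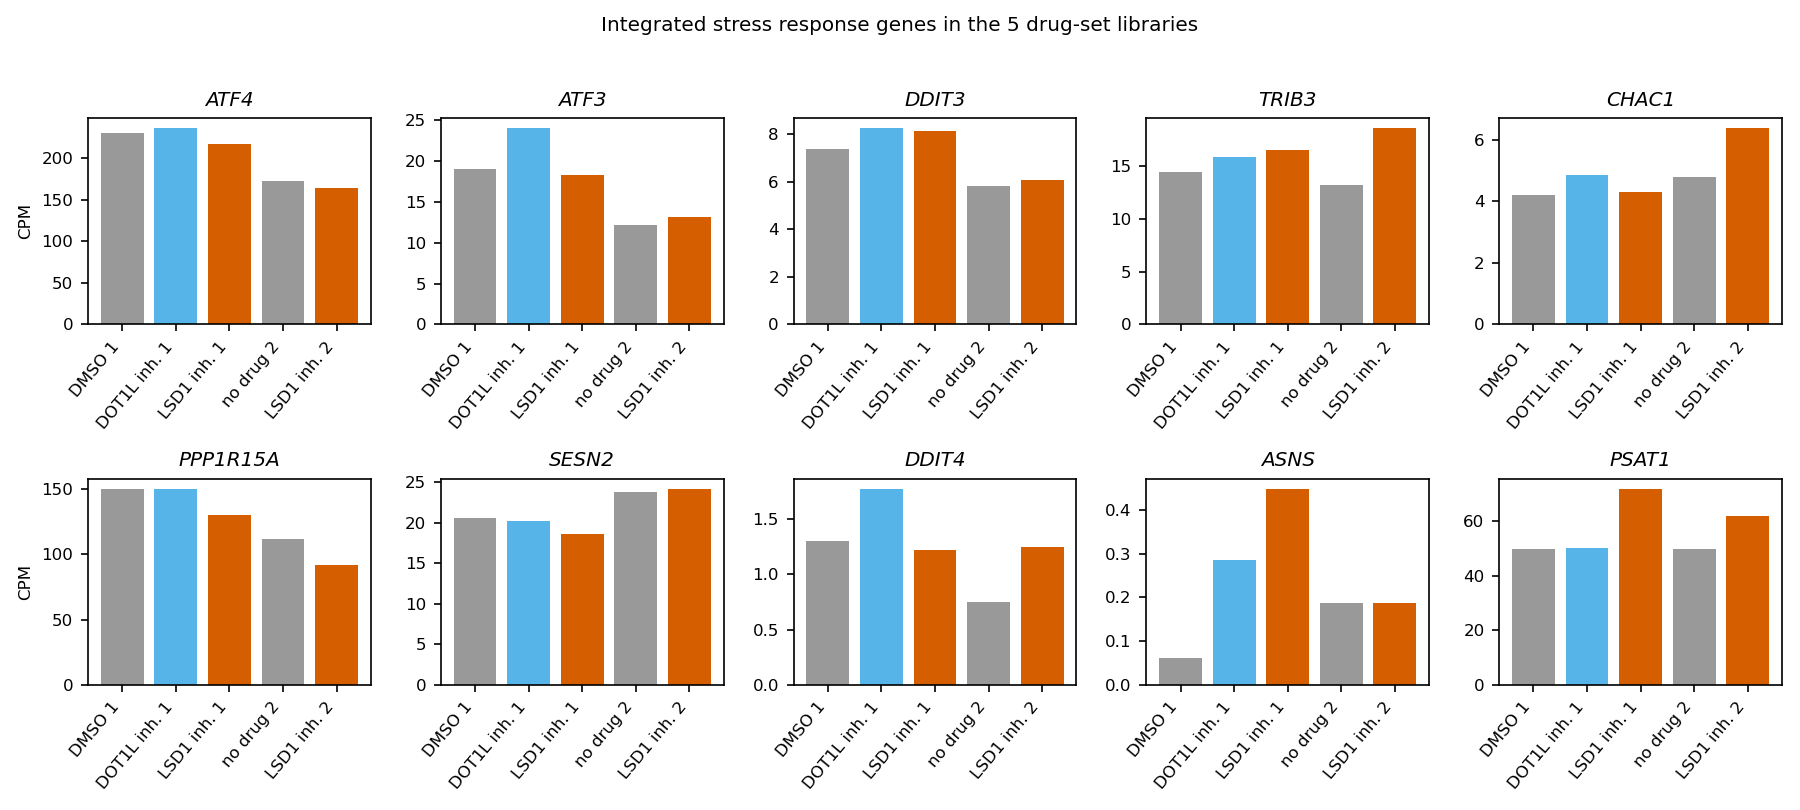
Level (CPM, linear axis from 0) of each gene in the 5 libraries of the drug set, 1 bar per library, with controls in grey, DOT1L inhibition in blue and LSD1 inhibition in orange. PSAT1 and TRIB3 are higher in both LSD1 inhibition libraries than in both controls, though neither was called without the replicate block. ATF4 and PPP1R15A are lower in the replicate 2 libraries.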

How the data were processed

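The authors deposited raw HTSeq counts per Ensembl gene, without normalisation. STAR, HTSeq and hg38 (GRCh38) are named per the submitters' processing notes. Versions, annotation release and strand setting are not given in the sources used here, and the kit in the labels does not record strand. HTSeq's own totals of uncounted reads were left out of library sizes. From these counts, edgeR 4.0.16 in R 4.3.3 was run with TMM factors, filterByExpr (minimum count 10, minimum total 15), the quasi-likelihood F test and Benjamini-Hochberg adjustment over all genes tested. The sort set had 1 shared fit, with separate fits for the trend and for LSD1 inhibition. SE is the log2 fold change divided by the root of F. DESeq2 1.42.0, RLE factors, no filter and left-out libraries were alternatives, and the procedure was tested on simulated data. The simulated counts held no replicate effect, so they do not bear on the choice of a block.

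The labels number the biological replicates. Same-numbered sort libraries deviated together from their group means (40 of 40 pairs had a correlation over 0.1, from 0.146 to 0.618, against 16 of 120 differently numbered pairs), so in the sort set blocked values stand beside calls they change. Libraries of a group differed by more than sampling noise (chi-square over degrees of freedom at least 9.24).

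The 10 genes and the lists were chosen with earlier results of these data known. All 10 are reported in each comparison, and from each list of the pathway up to 4 called genes with the largest change between high and low dye, or the 2 largest where none was called; exceptions are marked. Correlations use log2 CPM with a prior count of 2. Motifs, list replicate counts and annotation overlaps were added after seeing the data.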

Additional observations from a re-analysis of the deposited data

Results flagged for a closer look

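In the ungated group 1 library stood far from the other 3 for 3 genes. TRIB3 was at 51.28 CPM in ungated replicate 1 and the next library was at 17.6 CPM. CHAC1 was at 10.02 CPM there and the next at 4.45 CPM. SESN2 was at 46.47 CPM and the next at 21.8 CPM. In each case the gap to the nearest library took from 0.875 to 0.924 of the range of the group, above the 95% critical value of Dixon's test for 4 samples. Of 50 groups of 4 libraries examined (10 genes in 5 sort groups) 3 stood out, and chance gives about 1 in 20. Replicate 1 was also the highest library for these genes in the 4 gated groups.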

How the results depend on the processing

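With the replicate block the members called were 9 between high and low dye, 5 between midhigh and midlow dye, 8 between high dye and ungated cells, 4 between low dye and ungated cells and 3 for LSD1 inhibition, where 2 pairs cannot show that the numbers pair the samples (PSAT1 and TRIB3 higher, PPP1R15A lower, adjusted p = 2.83e-08, 0.0155 and 0.00221). Leaving out 1 library or 1 replicate number gave 1 to 7 members between high and low dye and 3 to 7 for the trend. In the other comparisons, where only single libraries were left out, it gave 0 members. DESeq2 and RLE factors left the number of members called as it was in all 6 comparisons. With no drug as the control, the DOT1L median was 0.42. The arm difference was 1.03 with the tested genes of the amino acid synthesis list added to ASNS and PSAT1. No member or arm value that had been called changed sign.

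All genes called between high and low dye numbered 2589, and 5433 with the replicate block, 1497 from the 8 compared libraries alone, 1255 and 1519 without high dye replicate 3 and 1, and 663 and 886 without replicate 1 and 3 as a whole. For the trend they were 3784, and 6317 with the block, 2514 without high dye replicate 3, and 1955 and 1619 without replicate 1 and 3 as a whole. Between midhigh and midlow dye 0 became 1574 with the block, 104 with DESeq2 and 99 with no filter. High dye against ungated gave 1, and 1107, 16 and 25 in the same order, low dye against ungated 11, and 1575, 188 and 177, and LSD1 inhibition 16, and 2242, 116 and 0. Leaving out 1 library gave 0 to 6, 0 to 36 and 108 to 331 in these 3. The cause was not tested. Depth limits ASNS and DDIT4 most, at 2 to 43 and 3 to 125 counts in the sort libraries.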
